A study of Mus musculus with 2 samples.

Results

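The kallikrein-related peptidases (Klk genes) are described here as *Klk4*, which is known from enamel, beside 9 members known largely from stratified epithelium, *Klk5*, *Klk6*, *Klk7*, *Klk8*, *Klk9*, *Klk10*, *Klk11*, *Klk13* and *Klk14*. The members were chosen by gene name among the non-control spots of the array, which gave 10 genes, each with 1 probe, of 24323 named genes. RNA came from teeth and skin of wild-type mice, whose age is postnatal day 0 by the labels, used here, and a day later by the study's methods. Each tissue had 1 array, and the number of animals behind each was not given in the sources used here. Cy3-labelled cRNA was hybridised to Agilent mouse arrays in a 1-colour design. With 1 array per tissue no difference has a replicate check, and no test was run.

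Kallikreins are secreted serine proteases with trypsin-like or chymotrypsin-like specificity that are made as inactive proenzymes and switched on by removal of a short propeptide. KLK4 is made by ameloblasts of the transition and maturation stages and degrades the enamel matrix proteins that the metalloproteinase MMP20 has begun to cleave, so that the mineral can harden. In skin, where cells of the outer epidermis are shed all the time, KLK5, KLK7 and KLK14 cut the junction proteins that hold corneocytes together, and the inhibitor LEKTI, the product of *Spink5*, holds them in check.

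The kallikrein probes divided by tissue with *Klk4* alone on the tooth side. The *Klk4* signal was 60.6-fold higher in tooth, while 8 of the other 9 members exceeded tooth by at least 2-fold in skin and the last, *Klk14*, was detected on neither array, where detected means that the extraction software called the spot well above background. Of the 17409 named genes detected on 1 array or both, 14.2% passed 2-fold towards skin and 15.5% towards tooth. At a 16-fold threshold, 6 epidermal members passed towards skin, where 3.04% of these genes did, and *Klk4* was the 1 member that passed towards tooth, where 1.36% did. With dim values at their bound the member counts were the same, 8 and 1 at 2-fold (14% and 13.3% of genes) and 6 and 1 at 16-fold (2.4% and 0.908%). Among genes measured on both arrays, 5 members passed 2-fold towards skin and *Klk4* towards tooth (11.4% and 12.3% of genes), and *Klk9*, *Klk11* and *Klk13* passed 16-fold towards skin and *Klk4* towards tooth (1.57% and 0.616%). Scaling the arrays by spike-in transcripts lowered every difference by 0.62 on the log2 scale and changed the all-gene shares at 2-fold to 9.04% for skin and 32.4% for tooth. Under it, 7 members remained at least 2-fold higher in skin, and *Klk10* was no longer among them. The count at 16-fold was not stable either. *Klk11* stood at 3.95 (log2) with spike-in scaling and *Klk13* at 3.91 with normexp background correction, each just under 16-fold.

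The members are neighbours in a single run of genes on chromosome 7. From the *Klk14* probe to the *Klk4* probe the run measured 190.785 kb in mm9, with every member probe on the plus strand. The probes of the members measured as higher in skin, from *Klk13* to *Klk5*, lay within 124.428 kb, and the *Klk4* probe followed the *Klk5* probe after 34.623 kb. Members of a gene family can share sequence, so the 60-base probes were set against each other. No 2 member probes shared a run longer than 9 bases over 45 pairs, and no member probe shared more than 10 bases with a probe of any other Klk gene over 200 pairs. By contrast, the longest run shared by probes of other Klk genes was 28 bases, between *Klk1* and *Klk1b4*. These are lengths of exact matches only and do not measure hybridisation.

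The sequences below show what the probes read. The probes of *Klk14*, *Klk10* and *Klk8* are given whole, as the undetected member and 2 members seen in both tissues. Each can be read without an inner stop in at least 1 frame, as can every member probe except that of *Klk7*. How often other array probes can was not counted, and an open frame does not show that a probe lies in coding sequence. The capitals in the *Klk14* probe mark a stop codon that closes such a frame.
Klk14 probe: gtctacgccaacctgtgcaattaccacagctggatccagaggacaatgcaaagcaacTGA
Klk10 probe: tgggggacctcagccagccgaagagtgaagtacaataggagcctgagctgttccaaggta
Klk8 probe: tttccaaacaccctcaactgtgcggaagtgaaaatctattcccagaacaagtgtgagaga
The *Klk10* probe, unlike the others, covered 644 bases of the genome with its 60 bases, so it crossed at least 1 intron.

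5 of the 10 member probes held the letters AATAAA, a form of the polyadenylation signal found near the end of many messages. The share of all array probes that hold it was not counted, so it cannot be called particular to kallikreins. The windows around it are shown with the hexamer in capitals.
Klk13 window: aagggcacacAATAAAattgtgttca
Klk9 window: aaacaattatAATAAAaccacgc
Klk7 window: agtgagacagAATAAAatctaagtga
Klk5 window: ttagacctcaAATAAAaaacgggaag
Klk4 window: gggatccacaAATAAAagacctctca
Past the hexamer the probe went on for 19 bases in *Klk13*, 7 in *Klk9*, 27 in *Klk7*, 17 in *Klk5* and 20 in *Klk4*. The tooth member and 4 skin members shared this feature. A match of these letters is a description and not a mapped cleavage site, and the exon or untranslated region under each probe was not analysed here.

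*Klk4*, the enamel protease, was read by a probe at chr7:51141115-51141174 (mm9). Its processed signal was 4512 ± 451 in tooth and 48.1 ± 6.59 in skin, where the error is the extraction software's own estimate for the spot. On the scale used for comparison, log2 relative to each array's 75th percentile, its level was 3.40 in tooth and -2.52 in skin. The probe was well above background on both arrays, so the fold is a measured ratio and not a bound. The difference, skin minus tooth, was -5.92 ± 0.24 (log2). This placed *Klk4* 18th from the tooth end among the 15271 named genes measured on both arrays. The skin signal was low, and with normexp background correction the difference was -4.89, a move larger than the error of 0.24. *Klk4* and *Klk13*, and *Spink5* and *Amtn* named below, also stood in the study's own list of genes compared between these tissues. So did *Krt1*, *Krt10*, *Krt13*, *Krt6a*, *Krt32* and *Lgr5* of the marker lists and *Slc24a4* of the enamel list below. The directions of all these genes are not independent of that list.

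Tooth and skin are mixtures of cell types, and in such samples fewer cells of a type and less RNA per cell cannot be told apart. The tissue labels were set against marker lists. All 6 ameloblast markers (*Amelx*, *Ambn*, *Enam*, *Amtn*, *Mmp20* and *Odam*) were detected in tooth only, with a summed level of 11.09 in tooth and -3.13 in skin (log2). The 3 odontoblast markers (*Dspp*, *Dmp1* and *Phex*) were also detected in tooth only, with summed levels of 7.94 and -4.01. The part of each cell type in the tooth signal of *Klk4* was not tested. The 7 markers of interfollicular epidermis had summed levels of 9.04 in tooth and 12.23 in skin and a median difference of 8.39, and the 6 hair follicle markers had summed levels of 1.37 and 9.58. The basal keratins *Krt5* (8.82 in tooth, 9.76 in skin) and *Krt14* (6.11 and 7.31) made up most of the tooth sum. All 7 epidermal markers were detected on both arrays, and of those of the upper layers *Lor* stood at 1.44, *Krt10* at 1.36, *Krt1* at -0.80 and *Flg* at -3.21 in tooth. Of the 4 oral mucosa markers, *Krt4* and *Krt76* were well above background in tooth only, and *Krt13* and *Krt6a* on both arrays, with a summed level of 4.09 in tooth and 5.998 in skin. *Krt13*, at 3.55 in tooth and 5.90 in skin, made up most of that sum. The median difference of the 4 was -1.01, with 1 past 2-fold towards skin and 2, *Krt4* and *Krt76*, towards tooth. This lean was not stable, since *Krt76* had a bound under 1 and became 0.08 with normexp background correction. Wherever it is used here, the normexp setting adds an offset of 50 to every value. That offset by itself shrinks a difference with a dim array, and its part was not separated from the background correction. The median was 0.03 with dim values at their bound. With normexp it was -0.17, with 0 markers past 2-fold towards tooth. The part of these cells in the tooth signals of the epidermal kallikreins was not tested.

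The desmosome-cutting proteases *Klk5*, *Klk7* and *Klk14* are considered first. *Klk5* encodes a trypsin-like enzyme that can activate itself and other kallikreins. Its signal was 24288 ± 2429 in skin and 15.3 ± 5.41 in tooth, and its level was 6.46 in skin and -4.80 in tooth. The tooth value was not well above background, so *Klk5* was at least 2011-fold higher in skin. This bound, like those of *Klk6* and *Klk7*, was computed only for the software's background subtraction. Normexp background correction gave smaller values, but its offset by itself shrinks such a ratio. *Klk7*, which encodes a chymotrypsin-like enzyme of the stratum corneum, had a signal of 4356 ± 436 in skin and 8.18 ± 4.92 in tooth. Its levels were 3.98 and -5.71, and it was at least 361-fold higher in skin.

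*Klk14* is the third protease of this group and is a trypsin-like enzyme in the adult epidermis. Its signal was 12.2 ± 5.10 in tooth and 5.18 ± 5.21 in skin, and the skin value was a surrogate that the software puts in place of a value too dim to use. Neither array was well above background, so no fold is given and the gene was left out of the counts. The levels, -5.13 in tooth and -5.74 in skin, have no order. The next member along the chromosome, *Klk13*, lay 31.734 kb away and was measured on both arrays.

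*Klk6*, which encodes a trypsin-like enzyme best known from the nervous system and also made in skin, was likewise bright in skin alone. Its signal was 1174 ± 118 in skin and 10.2 ± 4.56 in tooth, and its levels were 2.09 and -5.39. It was at least 97.2-fold higher in skin. *Klk5*, *Klk6* and *Klk7*, the 3 members detected in skin only, had neighbouring probes, at chr7:51106492-51106551, chr7:51086977-51087036 and chr7:51071388-51071447 (mm9), and they were the 3 members nearest to *Klk4*.

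The other 5 epidermal members were well above background on both arrays, so their differences could be measured and ordered. *Klk9*, a chymotrypsin-like member found in skin, had the largest of these. Its signal was 6289 ± 629 in skin and 134 ± 14.0 in tooth, its level was 4.51 in skin and -1.67 in tooth, and the difference was 6.18 ± 0.21, or 72.6-fold. It was 83rd from the skin end among the 15271 genes.

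*Klk13*, whose product is found in stratified epithelia, had a signal of 1272 ± 127 in skin and 56.6 ± 7.24 in tooth. Its level was 2.20 in skin and -2.92 in tooth, and the difference was 5.12 ± 0.23, or 34.8-fold. *Klk11*, a trypsin-like member that is expressed in the upper epidermis, had a signal of 4234 ± 423 in skin and 276 ± 27.8 in tooth. Its level was 3.94 in skin and -0.63 in tooth, and the difference was 4.57 ± 0.21, or 23.8-fold. The step between *Klk11* and *Klk13* was 0.55 ± 0.31 and did not exceed 2 of its errors, so their order was not resolved.

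*Klk8*, which encodes neuropsin and is active in both brain and epidermis, was bright on both arrays. Its signal was 922 ± 92.3 in tooth and 6419 ± 642 in skin, and the levels were 1.11 and 4.54. The difference was 3.43 ± 0.20, or 10.8-fold.

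*Klk10* differed least. Its product is found in several epithelia. Its signal was 385 ± 38.8 in tooth and 607 ± 60.9 in skin, its levels were -0.15 and 1.14, and the difference was 1.29 ± 0.21, or 2.44-fold. The difference was 0.67 under spike-in scaling, which is below 2-fold. The step from *Klk10* to *Klk8* was 2.14 ± 0.29, that from *Klk8* to *Klk11* 1.14 ± 0.29 and that from *Klk13* to *Klk9* 1.06 ± 0.31, each over 2 of its errors. From *Klk4* to *Klk10*, the nearest epidermal member, the step was 7.21 ± 0.32. These errors cover the spot and not dissection, RNA preparation or labelling.

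Over the 8 epidermal members counted, the median difference was 5.65 with dim values as measured. It was also 5.65 with dim values at their bound, since it lies between *Klk13* and *Klk9*, which have no dim value. Over the 5 measured on both arrays it was 4.57. The median over all 17409 genes was -0.04, with quartiles of -0.58 and 0.47. Every one of the 8 members lay above the upper quartile, and *Klk4* lay below the lower one.

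Neighbouring probes could differ widely. *Klk11* and *Klk10* were 4.525 kb apart by their probes and differed by 4.57 and 1.29, and *Klk9*, 12.626 kb beyond *Klk10*, by 6.18. *Klk12*, which is not a member but lies between *Klk13* and *Klk11*, had a pair of probes at low level. The *Klk12* probe measured on both arrays was at -2.54 in tooth and at -3.19 in skin, with -0.66 ± 0.31 as the difference, and the other was well above background in tooth alone with a bound under 1, so no fold is given. The sign for *Klk12* was not stable, since it was 0.05 with normexp background correction and -1.28 with spike-in scaling. The *Klk12* and *Klk11* probes lay 5.663 kb apart.

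Beyond *Klk4* lie the *Klk1* gene and its many *Klk1b* copies, the glandular kallikreins that mice express strongly in salivary gland. Of 17 other Klk genes on chromosome 7, 4 were detected on 1 array or both, and the probes of *Klk12*, *Klk1b8* and *Klk1b21* measured on both differed by less than 2-fold, except for *Klk12* with spike-in scaling. *Klk1b8* was at -2.57 in tooth and at -1.79 in skin, with 0.79 ± 0.24 as the difference. *Klk1b21* stood at -0.94 and -0.84, a difference of 0.10 ± 0.21 that became -0.52 with spike-in scaling. *Klk1b3* was well above background in tooth alone, with a bound under 1 and so no fold. Probes of these near-identical copies can bind each other's RNA, so their values are uncertain. *Klkb1*, the plasma kallikrein of another chromosome and no close relative, differed by 0.55 ± 0.41, and this became -0.07 with spike-in scaling. The summed level of 6 salivary gland markers was -0.47 in tooth and -0.14 in skin, but the 3 that were detected went different ways. *Bhlha15* was detected in tooth only (-4.81, and -1.42 with normexp) and *Aqp5* in skin only (4.25, and 2.24 with normexp). *Smr2*, in tooth only, differed by -0.51, a sign that normexp reversed (0.15). *Prol1*, *Smr3a* and *Amy1* were detected on neither array.

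**Figure D1:**
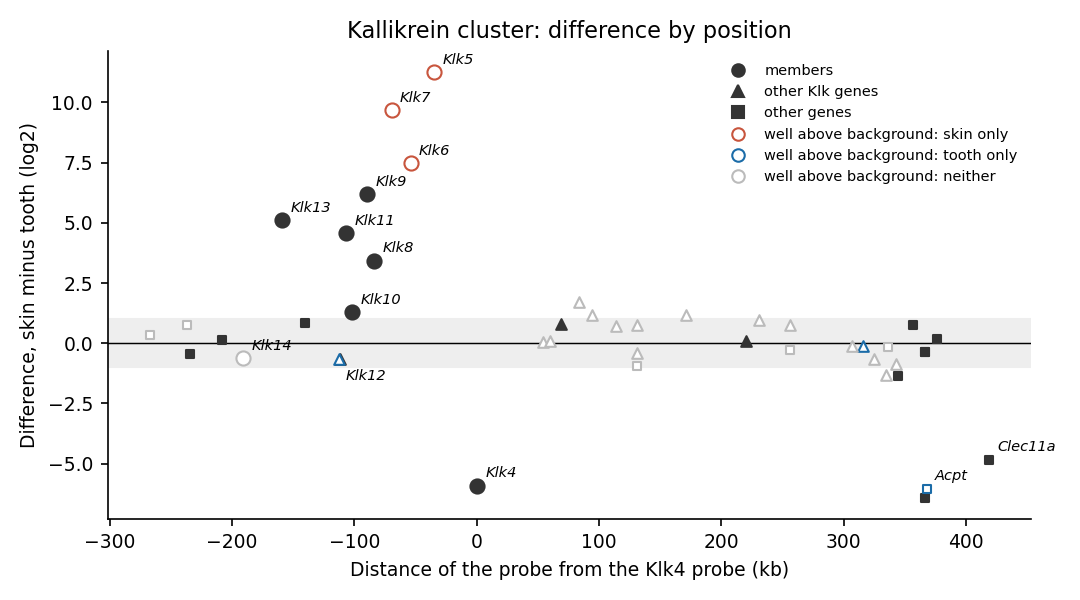
Difference between skin and tooth (log2) against the distance of each probe from the *Klk4* probe in kb, for the kallikrein members (circles), other Klk genes (triangles) and other genes within 100 kb of the run (squares); filled symbols were well above background on both arrays, coloured open ones on 1 array and grey ones on neither, and the grey band is a change under 2-fold. *Klk13* to *Klk5* sit above the band, *Klk4* sits at -5.92, and the other detected Klk genes lie within the band, which *Klk12* left with spike-in scaling (-1.28).

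The promoter windows of the members, from 250 bases before to 50 bases after each RefSeq start (GRCm38.p6), were searched on both strands for 9 short motifs. There were 12 windows for the 10 members among 32851 windows. Their median GC content was 56.5% (range 52 to 65.3), against 52.7% for all windows. *Klk4* was the only member with TATAAG, a variant of the TATA box, which was in 7.43% of all windows. The match was on both strands and overlapped itself, and it began 34 and 32 bases before the start. TATAAA was in none of the 12 windows and in 13.6% of all, and the AP-1 motif TGANTCA was in none and in 7.81% of all. GGGCGG, the GC box, was in 5 windows of *Klk6*, *Klk7*, *Klk8* and *Klk9* and in 35.7% of all windows. ACAAT, the core of a Sox motif, was in windows of *Klk6* and *Klk7* and in 31.0% of all. TAATTA, a homeobox motif, was in that of *Klk10* and in 5.29% of all. CANNTG, the E-box, was in 10 windows of 8 members, and 72.3% of all windows held it. TGTGGT, a Runx motif, and AACCGG, a grainyhead motif, were in no member window and in 16.8% and 6.83% of all. These are matches of letters and were not tested as sites.

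The windows of *Klk4*, of *Klk9* and *Klk10*, the epidermal members with the largest and smallest difference measured on both arrays, and of *Klk7*, a skin-only member that held a Sox core, are shown with matches of the TATA-like, GC box, homeobox and Sox letters on either strand in capitals.
Klk4 promoter, chr7:43880910-43881209 (GRCm38.p6, plus strand): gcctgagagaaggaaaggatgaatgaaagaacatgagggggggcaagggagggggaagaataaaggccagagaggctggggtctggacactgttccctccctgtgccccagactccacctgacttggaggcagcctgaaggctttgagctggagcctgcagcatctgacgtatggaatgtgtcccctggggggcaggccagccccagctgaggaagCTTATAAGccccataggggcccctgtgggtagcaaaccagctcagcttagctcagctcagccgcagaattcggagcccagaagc
Klk7 promoter, chr7:43811044-43811343 (GRCm38.p6, plus strand): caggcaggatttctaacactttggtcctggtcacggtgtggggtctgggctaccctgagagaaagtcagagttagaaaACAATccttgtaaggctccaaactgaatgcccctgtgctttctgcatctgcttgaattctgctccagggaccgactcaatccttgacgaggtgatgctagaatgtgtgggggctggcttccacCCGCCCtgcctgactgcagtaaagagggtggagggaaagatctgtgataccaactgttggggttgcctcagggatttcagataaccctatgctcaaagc
Klk9 promoter, chr7:43791641-43791940 (GRCm38.p6, plus strand): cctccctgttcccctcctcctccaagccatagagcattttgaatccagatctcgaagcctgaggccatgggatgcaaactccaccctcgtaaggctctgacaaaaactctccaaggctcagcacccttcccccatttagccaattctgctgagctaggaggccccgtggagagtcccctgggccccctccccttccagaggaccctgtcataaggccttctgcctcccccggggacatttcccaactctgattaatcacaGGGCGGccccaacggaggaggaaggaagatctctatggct
Klk10 promoter, chr7:43780804-43781103 (GRCm38.p6, plus strand): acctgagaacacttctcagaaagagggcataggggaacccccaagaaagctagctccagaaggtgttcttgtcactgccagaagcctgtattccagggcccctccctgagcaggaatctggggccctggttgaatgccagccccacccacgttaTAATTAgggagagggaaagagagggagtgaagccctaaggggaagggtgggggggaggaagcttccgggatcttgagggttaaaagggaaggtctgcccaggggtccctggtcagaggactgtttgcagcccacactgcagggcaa
The 4 windows show no capitals in common except the GC box of *Klk7*, which is on the other strand, and that of *Klk9*.

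Genes that act with kallikreins were followed through 4 lists. The first held enamel proteolysis and maturation genes, and all 17 were detected on 1 array or both. Of these, 12 passed 2-fold towards tooth and 3 towards skin (*Ctsc*, *Fam83h* at 1.72 and *Car6* at 4.97), with a median of -3.49. The 12 include the 6 ameloblast markers given above, so this list is not separate from them. Of all detected genes, 14.2% passed 2-fold towards skin and 15.5% towards tooth, for reading this and the later lists. *Mmp20*, the metalloproteinase that precedes KLK4, stood at 2.97 in tooth and -5.80 in skin, so that tooth was higher by at least 104-fold. *Amtn*, a protein of the maturation-stage ameloblast surface, was at least 25.8-fold higher in tooth. With normexp background correction the differences were -5.13 for *Mmp20* and -3.07 for *Amtn* (log2), which fall short of these bounds. *Ctsc*, the dipeptidyl peptidase cathepsin C, which can remove the propeptide of KLK4, ran the other way, with a difference of 2.28 between 0.40 in tooth and 2.68 in skin. The second *Ctsc* probe, measured in skin alone, gave at least 5.70-fold in the same direction. The gene that encodes the enamel protease and a gene whose product can activate it thus had opposite signs, though both were well above background in tooth.

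The second list held activators and companion proteases, most of them serine proteases. Of its 13 genes, 12 were well above background, 6 past 2-fold towards skin, 2 towards tooth and 4 within 2-fold, with a median of 0.98. The 6 include *Casp14* (6.64) and *Ctsd*, a lysosomal protease just past the threshold. These and *Ctsl* (0.39) are not serine proteases. With normexp, median, quantile or spike-in settings or the mean over probes, 5 genes passed towards skin. With spike-in scaling the median was 0.36 and 4 of the 12 genes were higher in tooth. *St14* encodes matriptase, a membrane protease that can activate epidermal kallikreins, and stood at 2.21 in tooth and 3.16 in skin. Its difference of 0.95 was under 2-fold and became 0.33 with spike-in scaling. *Prss8*, the prostasin partner of matriptase, was at -0.94 in tooth and at 1.73 in skin, which is a gap of 2.67 on this probe and of 2.59 on its second. So the genes of this activating pair were measured in both tissues, unlike *Klk5* and *Klk7*.

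The third list, the inhibitors, had 5 of 11 genes well above background, 2 past 2-fold towards skin, 0 towards tooth and 3 within 2-fold, with a median of 0.51. *Spink5*, whose product LEKTI blocks KLK5, KLK7 and KLK14, was at -0.56 in tooth and at 4.88 in skin, which is a gap of 5.44. With spike-in scaling the median became -0.11, with 3 of the 5 genes higher in tooth and 1 past 2-fold towards skin.

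The fourth list held substrates and receptors of the epidermal kallikreins, of which 11 of 13 were well above background, 9 past 2-fold towards skin and 2 towards tooth, with a median of 4.21. *Cdsn*, the corneodesmosin that KLK5 and KLK7 cut during shedding, was at -1.92 in tooth and at 7.03 in skin, which is a gap of 8.95. *Dsg1a*, a desmoglein of the upper epidermis, stood at 0.14 and 3.87, a difference of 3.73. *Dsc1*, its desmocollin partner, was at least 199-fold higher in skin. Its difference with normexp background correction, 5.42 (log2), falls short of that bound. *F2rl1*, the receptor PAR2 that KLK5 and KLK14 can cleave, was detected in skin only and at least 2.37-fold higher there, but its difference of 2.11 became 0.67 with normexp background correction, which left 8 genes of this list past 2-fold towards skin. The 2 genes that went towards tooth were *F2r*, the receptor PAR1, with a difference of -3.97, and *Camp*, the cathelicidin precursor that KLK5 and KLK7 process, with -1.86, and these were named after their values were seen.

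**Figure D2:**
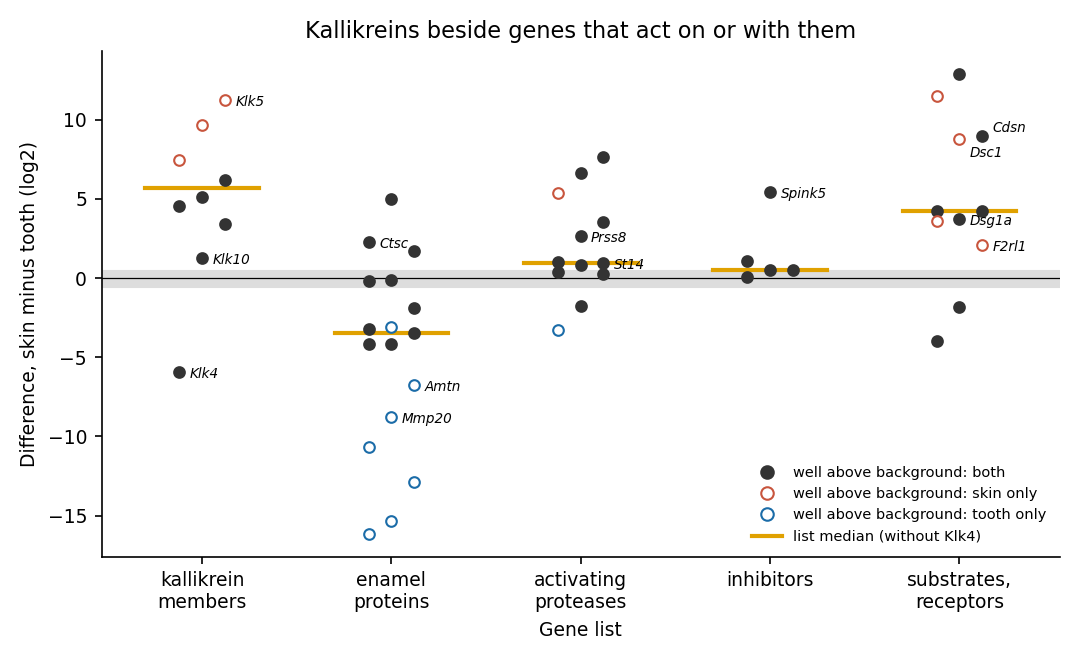
Difference between skin and tooth (log2) for each gene that was detected on 1 array or both, in the kallikrein set and the 4 companion lists; filled points were well above background on both arrays, open red ones in skin only and open blue ones in tooth only (dim values as measured), yellow bars are list medians without *Klk4*, and the grey band spans the quartiles of all genes. *Klk4* at -5.92 lies on the side of *Mmp20*, and the 8 epidermal kallikreins, with a median of 5.65, lie on the side of *Spink5* and *Cdsn*.

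Among the named genes measured on both arrays whose difference lay closest to that of *Klk4* were *Lama1* (-5.90), *Chst1* (-5.96), *Rasgef1a* (-6.02) and *Tnn* (-5.64). *Lama1* encodes a chain of basement membrane laminin. The difference of *Klk9* was matched most closely by *Gsta2* (6.19), *Clca3a1* (6.15), *Clic3* (6.14), *Pou3f1* (6.23) and *Rarres1* (6.25). *Pou3f1* encodes a POU factor of the upper epidermis. The likeness is the size of a single difference between 2 arrays and says nothing of shared control.

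Other processing changed the sizes of the detected kallikrein members and left the sign of these 9 genes in place. The difference of *Klk4* ran from -6.54 to -4.89 over the alternatives, that of *Klk9* from 5.54 to 6.20 and that of *Klk10* from 0.67 to 1.32. The members detected in skin only moved most, and with normexp background correction the differences were 8.56 for *Klk5*, 6.22 for *Klk7* and 4.47 for *Klk6*. Each is smaller than its bound given above, which is 10.97, 8.49 and 6.60 on the log2 scale. The offset of 50 in this setting is larger than the tooth signals of these genes and by itself lowers such differences. The comparison therefore cannot show how the bounds fare under another background treatment. They were computed for the main one only.

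**Figure D3:**
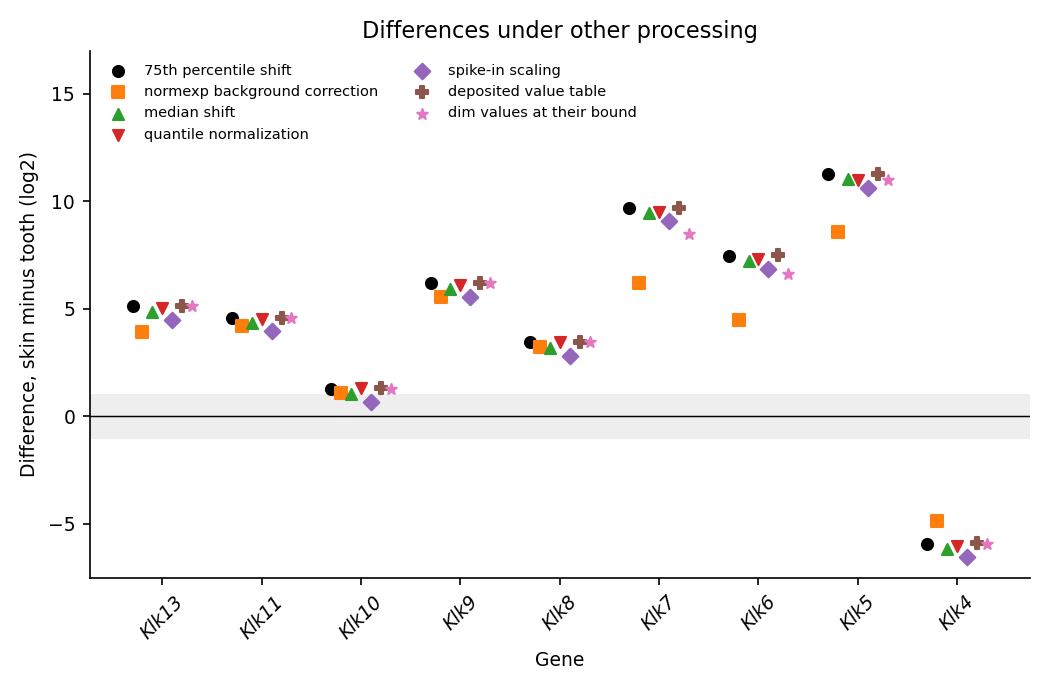
Difference between skin and tooth (log2) of each kallikrein under 7 ways of processing the arrays, with the genes in order along chromosome 7; each symbol is a setting, 1 value per gene, and the grey band is a change under 2-fold. *Klk4* stays between -6.54 and -4.89, *Klk5* falls to 8.56 with normexp background correction, and *Klk10* enters the band at 0.67 with spike-in scaling.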

How the data were processed

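Total RNA from 1 tooth and 1 skin sample was measured. Each array file deposited by the authors held spot intensities made by Agilent Feature Extraction (version 10.7.3.1, per the file headers), background-subtracted and detrended within each array, with surrogates for very dim values (22.8% of non-control spots in tooth, 25.5% in skin). The authors also deposited a value table, in which each value was a ratio, the processed intensity over an array-wide factor of 430.7 (tooth) or 274.5 (skin). The medians of that ratio were 0.0810 and 0.0989, on a linear scale and not centred by gene. The study's methods named a percentile shift and the removal of very low signals.

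Here control spots and outlier spots were left out, log2 values of the deposited intensities were averaged over the spots of a probe, and each array's 75th percentile over 55675 probes (signal 428 in tooth and 276 in skin, ratio 1.55) was subtracted. A probe counted as measured with the software's well-above-background call on over 50% of its spots, which held for 56.7% of probes in tooth and 52.5% in skin, and no spot was saturated. Among several probes of a gene, the brightest by its mean over tooth and skin was used. A fold with 1 dim array is a bound, the bright value over the higher of the lowest signal well above background on the dim array (-4.52 in tooth and -3.73 in skin, scaled log2) and the probe's own value. Such a bound was computed for this background subtraction only. With normexp some differences fell below it, but the offset of that setting by itself shrinks a difference with a dim array. The number of arrays, 1 per tissue, limits the precision. From probes with at least 8 bright spots (288 in tooth, 273 in skin), the median SD among spots was 0.08 and 0.09, which gives a difference an SD of 0.12 (log2). Names were matched by accession to RefSeq (GRCm38.p6) for 27235 of 33184 named probes (82.1%), probe coordinates are mm9 per the file headers, and promoters are those of RefSeq. Python 3.11.15, numpy 2.4.6, pandas 2.3.3, R 4.3.3 and limma 3.58.1 (normexp, offset 50) were used, and the calculation was tested on simulated data.

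The members and lists were chosen with earlier results of these data known. The text names the 10 members, the list genes best known to act on or with a kallikrein, other Klk genes that were well above background, and the 5 genes with the closest difference to *Klk4* and to *Klk9*, of which 1 is not reported here. The alternatives were normexp background correction, median, quantile and spike-in scaling (8 spike-ins), the deposited ratio table, the mean over probes, 2 filters on dim probes, dim values at their bound and another detection call.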

Additional observations from a re-analysis of the deposited data

How the results depend on the processing

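No difference of the 9 detected members changed sign under the alternatives run, and *Klk14* was not followed singly. Of 77 values of the 8 detected members other than *Klk4*, 47 stayed within the SD from spot scatter and 30 moved further with the same sign. Many of the 47 could not move. Filters and detection calls leave a value as it is, and each member has 1 probe to average. Values at their bound change only where an array was dim. The 47 are therefore no measure of stability. The difference of *Klk4*, -5.92, became -4.89 with normexp background correction, -6.17 with a median shift and -6.54 with spike-in scaling. The median of the epidermal kallikreins, 5.65, became 4.34, 5.40 and 5.03 under the same settings, 5.12 with no filter on dim probes or with detection by significance above background (both add *Klk14*), and 4.57 over members measured on both arrays. The count of members at least 2-fold higher in skin, 8, was 5 where both arrays had to be well above background, since this leaves out *Klk5*, *Klk6* and *Klk7*. It was 7 with spike-in scaling, where *Klk10* stood at 0.67, and the median of all genes moved from -0.04 to -0.67. A median shift moved the latter to -0.29. Signal over background limits *Klk5*, *Klk6* and *Klk7* in tooth to bounds and leaves *Klk14* unmeasured.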

Other observations

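Genes beside the kallikrein run were read from their probes within 100 kb of its outermost Klk probes, and 11 of these 16 probes could be measured on 1 array or both. The gene nearest to the epidermal members, *2310002F09Rik*, lies between *Klk13* and *Klk12* and differed by 0.85 (skin minus tooth, log2), which is under 2-fold. *Siglece*, a sialic acid-binding lectin of myeloid cells, differed by -0.44 and *Ctu1*, a tRNA-modifying enzyme, by 0.12 on the *Klk14* side.

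On the far side of the *Klk1b* copies, 3 genes were at least 2-fold higher in tooth in the probe differences as measured. For comparison, 15.5% of all detected genes passed 2-fold towards tooth. *1700028J19Rik* differed by -1.38. *Acpt*, a testicular acid phosphatase that is also known from enamel formation, stood at 1.83 in tooth and -4.21 in skin, where it was not well above background, which gave at least 47.2-fold towards tooth. Its probe lay 367.846 kb after the *Klk4* probe. A second probe, 366.607 kb after it and annotated to a transcript of the same acid phosphatase, was measured on both arrays and had the largest difference among these neighbours, -6.41 from 3.48 in tooth and -2.93 in skin, or 84.9-fold. *Clec11a*, a growth factor of bone-forming cells, was at 2.75 in tooth and at -2.09 in skin, with -4.84 as the difference, and was measured on both arrays. The osteoblast markers were also higher in tooth, 3 of 3 by at least 2-fold, with a summed level of 6.72 in tooth and -0.70 in skin, and their part in the *Clec11a* value was not tested. These neighbours were chosen for their position, and the genes past 2-fold were named after their values were seen. Their values were not followed under other processing, so the 47.2-fold bound and the 84.9-fold ratio are those of the main setting only.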
